A study of Mus musculus with 28 samples.

Results

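RNA recovered with wild-type PKR was compared between palmitate-treated and mock-treated mouse embryonic fibroblasts. The comparison used 6 of the 28 libraries of the series, 3 with palmitate and 3 mock, from the experiment that the submitters call dataset A. All 6 came from fibroblasts (MEF) reconstituted with wild-type PKR, so both groups carried the introduced kinase. The palmitate group received 0.1 mM palmitic acid and the other group a mock treatment. PKR was immunoprecipitated from lysate, the RNA in the precipitate was fragmented and cloned with a small RNA kit, and reads were counted per annotated feature. In the labels, each group's 3 libraries are biological replicates. The labels do not give the time of treatment, the vehicle or whether the reconstituted cells are 1 clone. The statistical model also held the 6 libraries of dataset A from cells with an RNA-binding mutant of PKR. They entered the filter, the scaling and the estimate of spread.

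PKR, encoded by Eif2ak2, is a kinase with a pair of double-stranded RNA-binding motifs. Binding to double-stranded RNA activates it, and its best known substrate is the translation initiation factor eIF2-alpha. Palmitate is the most common saturated fatty acid and a model of lipid overload in cultured cells. The title of the series concerns small nucleolar RNAs (snoRNAs), structured RNAs that guide the modification of ribosomal and spliceosomal RNA. Precipitates of an RNA-binding mutant of PKR are among the samples, and no input RNA or precipitate without PKR was analysed here. RNA abundance, binding to PKR and background in the precipitate therefore cannot be told apart, nor can fewer cells of a type from less RNA per cell.

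The palmitate libraries held 7555175, 5185248 and 3249858 counts, and the mock libraries 3552968, 4277434 and 3927988. The palmitate libraries differed among themselves more than the mock libraries did. Spearman correlations of levels over the tested features were 0.914 to 0.956 between palmitate libraries and 0.947 to 0.963 between mock libraries. Palmitate replicate 1 was the deepest library and had the highest share of snoRNA counts, so results are also given without it. The cells showed fibroblast transcripts: 15 fibroblast markers summed to 8230 to 9930 CPM (counts relative to the scaled library total) with palmitate and 10500 to 12100 CPM in mock. Markers of macrophages and lymphocytes summed to 0.686 to 2.18 CPM with palmitate and 1.85 to 2.8 CPM in mock, and 11 of those 16, among them Ptprc and Cd3e, had no count in any of the 6 libraries. Epithelial markers summed to 0.686 to 2.61 CPM with palmitate and 0.933 to 3.04 CPM in mock, with 6 of 12 at 0, among them Krt5 and Krt14. Endothelial markers summed to 1.03 to 1.64 CPM with palmitate and 2.8 to 3.7 CPM in mock, with 4 of 11 at 0, among them Cldn5 and Tie1. The Eif2ak2 transcript itself had 6.88, 8.05 and 15.4 CPM with palmitate against 6.9, 9.72 and 8.09 CPM in mock (log2 fold change 0.21 ± 0.31, SE; edgeR adjusted p = 0.844), and the groups overlapped.

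Palmitate changed a small set of messenger RNAs in the precipitate. Of 11328 features tested, 38 passed an adjusted p of 0.05 in edgeR's quasi-likelihood test (0.335%), 27 of them higher with palmitate (0.238%) and 11 lower (0.0971%). All 38 were protein-coding genes, which made up 9766 of the features tested, so 0.389% of those genes passed, 0.276% higher and 0.113% lower. With protein-coding features fitted alone, 117 of 9949 passed (1.18%), 85 higher (0.854%) and 32 lower (0.322%), all 38 among them. In each of the 38 the 3 palmitate libraries lay on one side of the 3 mock libraries, as they did in 18.4% of all tested features. At an unadjusted edgeR p under 0.05 there were 575 features higher (5.08%) and 757 lower (6.68%), together 11.8% of those tested, which is the background for the counts of list members at that p. DESeq2 called 35 features (0.309%), 30 higher (0.265%) and 5 lower (0.0441%), of which 28 were among the 38. The number rested on single libraries. It was 81, 7 and 42 without palmitate replicate 1, 2 or 3, and 11, 6 and 8 without mock replicate 1, 2 or 3. It was 137 without replicate 2 of the palmitate group with RNA-binding-mutant PKR, a library of 254762 counts that shares the estimate of spread. With total counts as the scale, 6 of the 38 passed. With the 6 WT libraries fitted alone 11 of the 38 passed, and 0 did with a replicate block added to that fit (edgeR; 1010 features at an unadjusted p under 0.05). The 38 kept their sign in each of these fits.

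Of the 38 transcripts, 3 passed in no fit that left out one of the 6 libraries, namely Slc7a3, Srgap3 and Emc10. Adamts5, Acacb, Ddx21, Fermt2 and Mical2 were among those that passed in 1 of these 6 fits. In every such fit 4 transcripts passed. These were Ccn2 (listed as Ctgf), Angptl4 and Skil, which were higher, and Osr2, which was lower. Each lies alone in the count table, with no other feature over its position. Their levels by library, with those of 8 other called transcripts, are plotted here.

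**Figure D1:**
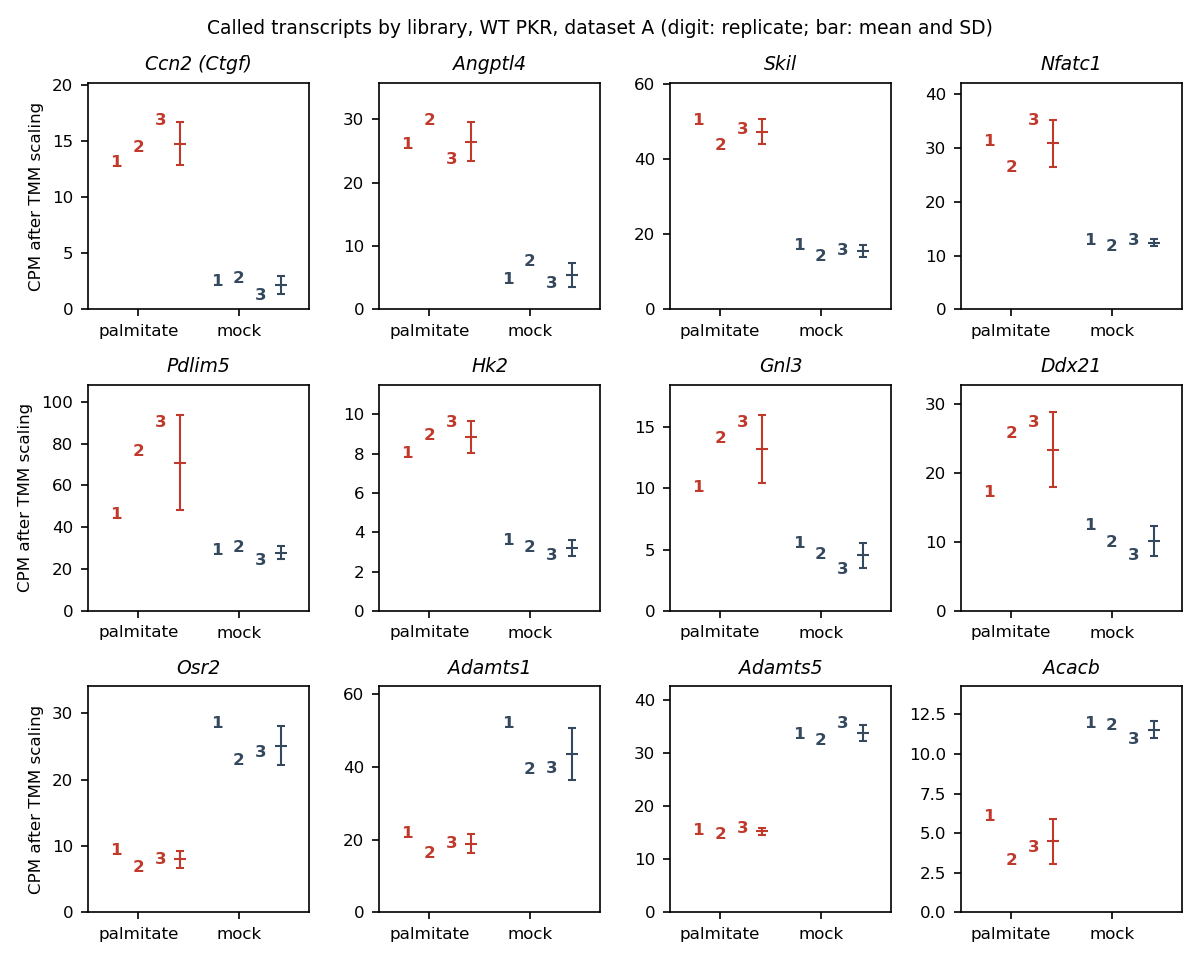
Levels of 12 called transcripts in CPM after TMM scaling (vertical axes, linear from 0) in the palmitate libraries (red, left) and the mock libraries (dark blue, right) of WT PKR, dataset A. Digits are replicate numbers and the bar beside them is the mean with its SD (n = 3). In each panel the palmitate digits lie wholly above or wholly below the mock digits, and Ccn2 reaches 13.1 to 16.8 CPM with palmitate against at most 2.78 CPM in mock.

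Targets of transforming growth factor beta (TGF-beta) included the strongest increase. Ccn2 encodes a secreted matricellular protein, connective tissue growth factor, and lies at chr10:24315248-24318489 on the plus strand of mm9. It had 13.1, 14.4 and 16.8 CPM with palmitate against 2.49, 2.78 and 1.24 CPM in mock. The lowest palmitate library was far above the highest mock library, and the transcript rose 6.48-fold (log2 fold change 2.70 ± 0.35, SE; edgeR adjusted p = 0.000728). Skil, which encodes the SMAD corepressor SnoN, had 50.3, 43.8 and 48.0 CPM with palmitate and 17.1, 14.1 and 15.6 CPM in mock. Both groups were tight, and Skil rose 3.04-fold (log2 1.60 ± 0.20; edgeR adjusted p = 0.000434). Adamts1, a secreted metalloprotease that also stands on this list, moved the other way, with 21.6, 16.3 and 18.9 CPM with palmitate and 51.9, 39.3 and 39.5 CPM in mock (log2 -1.20 ± 0.19; edgeR adjusted p = 0.00799). Of the 36 tested members of the list, 3 were higher, 1 was lower and 32 did not pass. The median log2 fold change of the list was 0.27, and that of all features was -0.03. Of 24 tested targets of YAP and TEAD, the transcription pair of the Hippo pathway, only Ccn2 passed, and the median was 0.16.

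Of the messages of NFAT factors, transcription factors that calcineurin brings to the nucleus, Nfatc1 and Nfatc2 were higher. Nfatc1 had 31.1, 26.3 and 35.0 CPM with palmitate against 12.7, 11.6 and 12.8 CPM in mock. The mock libraries were nearly level, and Nfatc1 rose 2.49-fold (log2 1.31 ± 0.20; edgeR adjusted p = 0.00598), passing in 5 of 6 fits with 1 library left out. Nfatc2 had 4.75, 8.05 and 6.86 CPM with palmitate against 0.276, 2.08 and 1.24 CPM in mock (log2 2.34 ± 0.41; edgeR adjusted p = 0.0138). It was scarce in mock, passed in 3 of those 6 fits, and DESeq2 gave it no adjusted p. The remaining 9 tested members of the list of NFAT factors and calcineurin inhibitors did not pass, and the median of all 11 was 0.14. Other called regulators of transcription were Klf13 (log2 0.95 ± 0.20), Hivep3 (1.17 ± 0.24) and the chromatin remodelling subunit Baz1a (1.33 ± 0.25). Hivep3 overlaps another feature of the same name on its own strand. Baz1a overlaps RP24-380F18.2 on its own strand and Gm24296 on the other. Osr2, a zinc-finger transcription factor of the odd-skipped family, had 9.33, 6.75 and 7.89 CPM with palmitate and 28.4, 22.9 and 24 CPM in mock. The groups were well apart, and Osr2 fell to 0.322 of its mock level (log2 -1.63 ± 0.20; edgeR adjusted p = 0.000434).

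Nucleolar ribosome biogenesis factors were the function list with the most members at an unadjusted p under 0.05 in 1 direction. Of 49 tested, 3 rose (Gnl3, Ddx21 and Wdr43), 15 were higher and 0 lower at that unadjusted p, and 44 had a positive log2 fold change, with a median of 0.44. Among all features, 5354 of 11328 were positive, and 5.08% were higher at that p. Cholesterol synthesis, described below, had a larger share of its members at that p, with 12 of 22 lower. Gnl3, the nucleolar GTPase nucleostemin, had 10.1, 14.1 and 15.4 CPM with palmitate against 5.52, 4.63 and 3.42 CPM in mock (log2 1.51 ± 0.29; edgeR adjusted p = 0.0223). Ddx21, a nucleolar RNA helicase, had 17.2, 25.7 and 27.4 CPM with palmitate and 12.4, 9.95 and 8.09 CPM in mock (log2 1.18 ± 0.24; edgeR adjusted p = 0.0356). Wdr43, a protein of the small-subunit processome, had 29.3, 47.9 and 48.4 CPM with palmitate against 17.1, 19.7 and 18.7 CPM in mock (log2 1.17 ± 0.22; edgeR adjusted p = 0.0223). In all 3 genes palmitate replicate 1 was the lowest palmitate library and still lay above every mock library. Gnl3 overlaps Snord19, Snord69 and Gm24916 on its own strand and Glt8d1 on the other, and Wdr43 overlaps Snord53, Snord92 and Gm22858. Whether counting used strand is not given in the sources used here, so reads of these features cannot be assigned with certainty. Spata5, a AAA-type ATPase of large-subunit maturation that is not on the list, was called too (log2 1.11 ± 0.23; edgeR adjusted p = 0.0403). Dis3, a catalytic subunit of the RNA exosome, was also called (log2 1.08 ± 0.22; edgeR adjusted p = 0.0372), and it overlaps Pibf1 on the other strand.

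Promoters were read from RefSeq on GRCm38.p6, 300 bases around each start, for the genes of the ribosome biogenesis and actin lists described here. The E-box CACGTG, searched as the same letters on both strands, was present at 9 of the 45 ribosome biogenesis genes with a promoter sequence, at 4 of 25 called genes (16.0%) and at 8.09% of 27025 genes in the table. Among the 7780 tested protein-coding genes with a promoter sequence it was present at 12.3%. The CArG box is the motif of serum response factor. It was present at 8 of the 48 tested genes of the actin cytoskeleton and adhesion list with a sequence (16.7%). It was present at 1.61% of those 7780 genes and at 1.81% of all 27025. Among the 25 called genes with a sequence it was present at 1 (4.0%), Fermt2, which is not on the actin list. These matches describe letters in a window and show no binding. Shown with the motif in capitals are Wdr43 and Tsr1 for the E-box, and Fermt2 and Vcl for the CArG box. The windows are chr17:71615965-71616264 (plus strand) for Wdr43, chr11:74897830-74898129 (plus) for Tsr1, chr14:45530016-45530315 (minus) for Fermt2 and chr14:20929148-20929447 (plus) for Vcl.
Wdr43: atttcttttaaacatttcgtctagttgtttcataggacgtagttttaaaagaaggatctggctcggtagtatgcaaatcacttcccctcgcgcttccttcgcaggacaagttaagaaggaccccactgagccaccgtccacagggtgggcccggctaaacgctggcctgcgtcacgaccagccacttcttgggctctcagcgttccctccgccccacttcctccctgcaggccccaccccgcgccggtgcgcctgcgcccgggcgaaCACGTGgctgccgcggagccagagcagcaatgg
Tsr1: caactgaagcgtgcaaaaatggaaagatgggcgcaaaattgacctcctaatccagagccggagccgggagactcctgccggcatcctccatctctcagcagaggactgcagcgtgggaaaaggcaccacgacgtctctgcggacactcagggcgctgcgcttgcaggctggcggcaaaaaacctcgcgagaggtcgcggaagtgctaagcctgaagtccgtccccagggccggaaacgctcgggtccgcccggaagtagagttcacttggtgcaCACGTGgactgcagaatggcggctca
Fermt2: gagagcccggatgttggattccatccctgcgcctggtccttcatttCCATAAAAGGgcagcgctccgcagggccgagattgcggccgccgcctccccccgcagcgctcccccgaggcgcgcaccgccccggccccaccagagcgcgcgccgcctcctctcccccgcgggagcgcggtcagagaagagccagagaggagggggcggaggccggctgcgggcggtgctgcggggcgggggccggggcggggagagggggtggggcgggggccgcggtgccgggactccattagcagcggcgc
Vcl: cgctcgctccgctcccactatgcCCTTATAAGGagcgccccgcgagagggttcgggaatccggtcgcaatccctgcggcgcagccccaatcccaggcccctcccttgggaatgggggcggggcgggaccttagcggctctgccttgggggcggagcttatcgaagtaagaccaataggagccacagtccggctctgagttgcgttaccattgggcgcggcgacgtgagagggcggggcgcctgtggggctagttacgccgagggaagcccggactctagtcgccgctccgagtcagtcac

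Of 55 tested messages of the actin cytoskeleton and of cell adhesion, edgeR called 1 (Pdlim5) and DESeq2 called 3 (Vcl and Palld among them), all higher. In edgeR 10 were higher and 0 lower at an unadjusted p under 0.05, and 47 were positive, with a median of 0.38. Pdlim5, a PDZ and LIM domain scaffold bound to actin filaments, had 46.0, 76.4 and 90.2 CPM with palmitate against 29.0, 30.3 and 24.3 CPM in mock (log2 1.34 ± 0.23; edgeR adjusted p = 0.0128). Fermt2 (kindlin-2, an integrin activator, whose CArG box is shown above) was called outside the list, with 40.9, 72.0 and 83.4 CPM with palmitate and 31.2, 31.2 and 21.8 CPM in mock (log2 1.21 ± 0.24; edgeR adjusted p = 0.0297). Mical2, an actin-oxidising monooxygenase, had 40.1, 41.1 and 59.0 CPM with palmitate and 18.5, 24.5 and 22.7 CPM in mock (log2 1.08 ± 0.22; edgeR adjusted p = 0.0322). In Pdlim5 and Fermt2 the palmitate libraries were spread widely, with replicate 1 lowest and replicate 3 highest, while mock libraries stayed close together. Mtus1, a microtubule-associated protein, rose in a tight range, 41.4, 45.3 and 43.2 CPM with palmitate against 19.6, 16.9 and 19.9 CPM in mock (log2 1.21 ± 0.20; edgeR adjusted p = 0.00799).

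In fat and glucose metabolism the calls were single genes of their lists. Angptl4, a secreted inhibitor of lipoprotein lipase and a target of fatty-acid-activated PPAR receptors, had 26, 29.8 and 23.7 CPM with palmitate against 4.69, 7.63 and 4.04 CPM in mock. It rose 4.75-fold (log2 2.25 ± 0.26; edgeR adjusted p = 0.000402), and no palmitate library came near the mock range. The other 31 tested members of the list of fatty acid response and beta-oxidation did not pass in edgeR, and the median of all 32 was -0.03. DESeq2 called 2 members, both higher, among them Acsl4 (DESeq2 adjusted p = 0.0113). In edgeR Acsl4 had a log2 fold change of 0.88 ± 0.24 (edgeR adjusted p = 0.138). Acacb, the acetyl-CoA carboxylase that makes malonyl-CoA at mitochondria, had 6.06, 3.26 and 4.12 CPM with palmitate against 11.9, 11.8 and 10.9 CPM in mock (log2 -1.32 ± 0.26; edgeR adjusted p = 0.0322). It was the only one of 21 fatty acid synthesis genes to pass. Of these 21 genes, 5 were lower and 0 higher at an unadjusted edgeR p under 0.05, with a median of -0.22. Hk2, the hexokinase of the first glycolytic step, had 8.02, 8.92 and 9.6 CPM with palmitate against 3.59, 3.24 and 2.8 CPM in mock (log2 1.43 ± 0.27; edgeR adjusted p = 0.0223), the only one of 22 genes of glucose uptake and glycolysis. Uap1, which makes the UDP-N-acetylglucosamine used in glycosylation, had 12.3, 13.1 and 12.7 CPM with palmitate against 4.97, 4.4 and 5.29 CPM in mock (log2 1.38 ± 0.26; edgeR adjusted p = 0.0223). The phosphate transporter Slc20a1 rose with it (log2 1.38 ± 0.23; edgeR adjusted p = 0.0104). The cationic amino acid transporter Slc7a3 was lower, with 1.31, 1.09 and 0.686 CPM with palmitate against 2.76, 4.86 and 4.36 CPM in mock (log2 -1.85 ± 0.39; edgeR adjusted p = 0.0394), and passed in no fit with 1 library left out.

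Among matrix genes the called transcripts were proteases, and both were lower. Adamts5, an aggrecanase, had 15.4, 14.6 and 15.8 CPM with palmitate and 33.4, 32.4 and 35.5 CPM in mock (log2 -1.15 ± 0.23; edgeR adjusted p = 0.0329). The spread within each group was small beside the gap, but Adamts5 passed in only 1 of the 6 fits with 1 library left out. With Adamts1 it made 2 called of 51 tested matrix genes, both lower, and the median of the list was -0.14. The other lower transcripts were Ston2, an endocytic adaptor (log2 -1.55 ± 0.27; edgeR adjusted p = 0.0138), Gab3, a signalling adaptor (-1.45 ± 0.27), Fam84b (-1.40 ± 0.27), Srgap3 (-1.31 ± 0.27), Zmat1 (-1.19 ± 0.25) and the ER membrane complex subunit Emc10, listed as 2310044H10Rik (-1.64 ± 0.35). Of the remaining higher transcripts, Samd4, a relative of the translational repressor Smaug, had 22.9, 26.3 and 28.1 CPM with palmitate against 8.28, 13.4 and 8.71 CPM in mock (log2 1.32 ± 0.21; edgeR adjusted p = 0.00799). Il1rl1, the receptor of interleukin-33, had 49.1, 46.1 and 31.2 CPM with palmitate and 22.1, 20.4 and 21.2 CPM in mock (log2 1.0 ± 0.20; edgeR adjusted p = 0.0322). The glucocorticoid-responsive co-chaperone Fkbp5 (log2 1.32 ± 0.26), the synaptic scaffold Homer1 (1.16 ± 0.24) and the kinase Bmp2k (0.91 ± 0.18) were also higher.

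Leaving out palmitate replicate 1 kept most calls and added more. Without it 81 of 11672 features passed (0.694%), 67 higher (0.574%) and 14 lower (0.12%), and 31 of the 38 were among them, 25 higher and 6 lower. The 7 that no longer passed were Hivep3 and Homer1, which were higher, and Zmat1, Srgap3, Gab3, Emc10 and Slc7a3, which were lower. Their adjusted p without that library, again from edgeR, ran from 0.0541 for Slc7a3 to 0.0952 for Emc10. Hivep3 and Homer1 had their highest palmitate library in replicate 1, at 27.8 CPM for Hivep3 with 16.1 and 19.6 CPM in the others, and at 19.5 CPM for Homer1 with 17.8 and 10.3 CPM. DESeq2 without this library called 41 features, 21 of them among the 38. All 38 kept their sign.

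**Figure D2:**
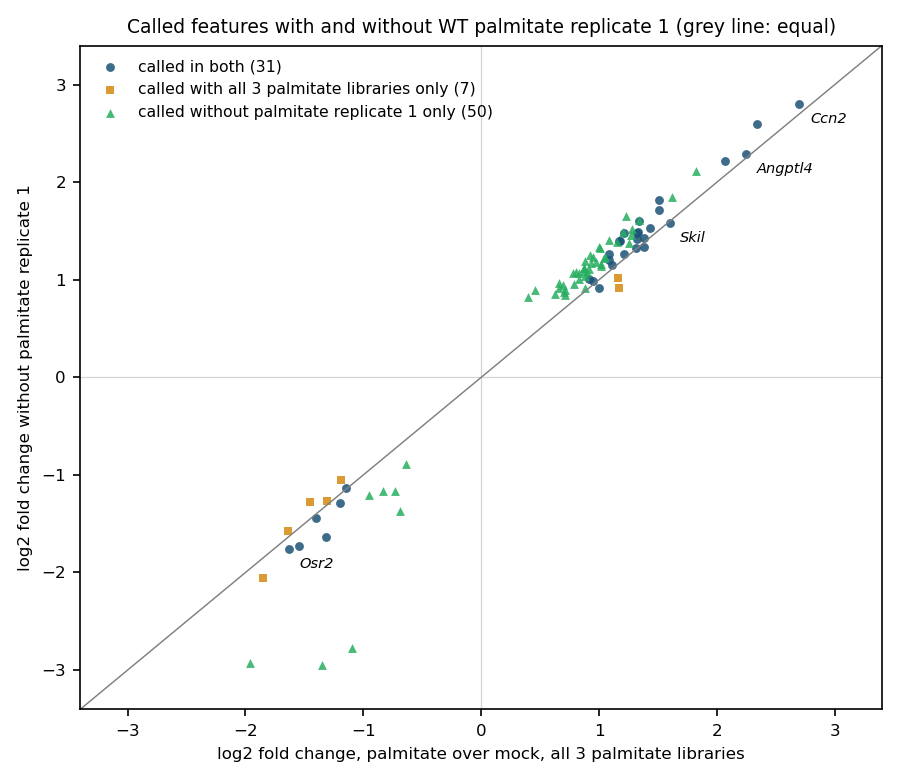
Log2 fold change of palmitate over mock with all 3 palmitate libraries (horizontal axis) and without palmitate replicate 1 (vertical axis) for each feature called in either fit; the grey line marks equal values. The 31 features called in both lie along the line, Ccn2 lies at 2.70 and 2.80, and the 50 called only without replicate 1 have the same sign on both axes.

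The 50 features called only without palmitate replicate 1 were 42 higher and 8 lower. Of the 42, palmitate replicate 1 was the lowest palmitate library in 41 and lay above all mock libraries in 36. Of the 8 lower, it was the highest palmitate library in 8. Since the features were selected by leaving it out, this is a description of that library. They added 6 ribosome biogenesis factors, so that 9 of 49 passed, all higher, with a list median of 0.52. Gtpbp4, a nucleolar GTPase, had 23.4 CPM in palmitate replicate 1 and 38.1 and 50.4 CPM in the others, against 21.3, 20.1 and 15.2 CPM in mock (log2 0.95 ± 0.24 with all libraries, edgeR adjusted p = 0.101; 1.23 without replicate 1, edgeR adjusted p = 0.00478). Tsr1, a factor of small-subunit maturation whose E-box is shown above, had 21.4, 30.5 and 35.3 CPM with palmitate and 15.2, 14.1 and 14.6 CPM in mock (1.18 without replicate 1; edgeR adjusted p = 0.00614). Nop58, a core protein of C/D box snoRNA particles, had 16.4, 25.7 and 19.6 CPM with palmitate and 11, 11.8 and 9.95 CPM in mock (1.08 without replicate 1; edgeR adjusted p = 0.0125). Snord11, Snord70 and other small RNA genes overlap Nop58 on its own strand, and Snord91a, Gm22771 and Srr overlap Tsr1. The other 3 were Nop14, Rrp12 and Lyar, with log2 fold changes of 1.07, 1.46 and 1.65 without replicate 1.

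Vinculin and palladin, a pair of actin-linked adhesion proteins, passed in edgeR in that fit, and in DESeq2 already with all libraries (DESeq2 adjusted p = 0.000428 for Vcl and 0.017 for Palld). Vcl, whose CArG box is shown above, had 144, 191 and 219 CPM with palmitate and 89.2, 91.6 and 87.7 CPM in mock (1.22 without replicate 1; edgeR adjusted p = 0.0207). Palld had 76.0, 103 and 125 CPM with palmitate against 51.6, 55.5 and 53.8 CPM in mock (1.11; edgeR adjusted p = 0.013). In both genes every palmitate library lay above every mock library, and their edgeR adjusted p with all libraries was 0.0841 for Vcl and 0.088 for Palld. Vcl overlaps Ap3m1 on the other strand. Lrrfip1 rose without replicate 1 (1.41; edgeR adjusted p = 0.00371), as did Actr3, a subunit of the actin-branching Arp2/3 complex (1.09; 0.00672), the nucleotide synthesis enzyme Ctps (1.19; 0.00827), the phosphatase of RNA polymerase II Ctdp1 (1.17; 0.00827), the ABC-family protein Abcf2 (1.25; 0.00497) and Dcaf13 (1.49; 0.00827), which overlaps a 5S RNA feature. Ldha, lactate dehydrogenase A, had 21.9, 30.0 and 43.9 CPM with palmitate and 18.2, 19.0 and 15.6 CPM in mock (1.07 without replicate 1; edgeR adjusted p = 0.011).

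Eif2s1 encodes eIF2-alpha, the substrate of PKR. It had 10.5, 19.8 and 20.9 CPM with palmitate against 8.56, 12.5 and 10.3 CPM in mock, so the groups overlapped through palmitate replicate 1. Its log2 fold change was 0.66 ± 0.25 with all libraries (edgeR adjusted p = 0.285) and 0.97 without that library (edgeR adjusted p = 0.038). Tnfaip3, an inhibitor of NF-kappaB signalling, had 11, 17.6 and 17.2 CPM with palmitate against 6.63, 6.25 and 5.6 CPM in mock (1.52 without replicate 1; edgeR adjusted p = 0.013). The inducible chaperone Hspa1b had 36.5, 49.6 and 79.9 CPM with palmitate and 31.5, 34.0 and 36.1 CPM in mock (0.95; edgeR adjusted p = 0.0251). The 8 lower were Npc1, the lysosomal cholesterol exporter (-1.17; edgeR adjusted p = 0.0407), the ubiquitin ligase Birc2 (-1.17; 0.0265), the lysophosphatidic acid receptor Lpar4 (-2.77; 0.0425), Adamts15 (-2.93; 0.0402), the decoy death receptor Tnfrsf22 (-2.95; 0.0387), Phf21a (-1.21; 0.0495), Mbd5 (-1.37; 0.0411) and Zfyve26 (-0.89; 0.0494). The only noncoding features among the 50 were a pair of glycine transfer RNA genes with the anticodon CCC. The one on chromosome 6 had 24.2, 72.5 and 94.0 CPM with palmitate and 37.6, 49.0 and 49.8 CPM in mock (0.89 without replicate 1; edgeR adjusted p = 0.0402), with replicate 1 below and the other palmitate libraries above every mock library.

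No RNA class took a share of counts that separated the groups. In the WT libraries 102 features nearly matched another feature in their counts. Among protein-coding genes, Hoxb4 nearly matched Mir10a, which overlaps it, and the long noncoding RNA Gas5 overlaps Snord47, Snord78 and Snord80. The same reads may thus be counted under several features and classes, so the class shares are not separate measurements. Nuclear ribosomal RNA features held 14.0%, 19.8% and 25.2% of counts with palmitate against 20.5%, 19.7% and 19.0% in mock. C/D box snoRNAs held 16.3%, 10.1% and 5.04% with palmitate and 6.33%, 6.28% and 11.3% in mock, and snoRNA features without an Snora or Snord symbol 28.6%, 19.8% and 9.12% with palmitate and 12.3%, 11.5% and 18% in mock. H/ACA box snoRNAs held 0.424%, 0.297% and 0.145% with palmitate and 0.191%, 0.187% and 0.238% in mock. In the 3 snoRNA classes palmitate replicate 1 was the highest and palmitate replicate 3 the lowest of all 6 libraries. MicroRNA features showed the opposite order, with 6.88%, 11.9% and 19.4% with palmitate against 15.8%, 15.1% and 13.8% in mock. Protein-coding genes without Lars2 held 16.7%, 19.4% and 20.9% with palmitate and 22.1%, 21.8% and 17.2% in mock. Lars2, a mitochondrial leucyl-tRNA synthetase gene, is given apart from its class and held 3.16%, 5.98% and 8.57% with palmitate and 11%, 12.6% and 8.23% in mock (exact permutation test, two-sided, p = 0.2). Over 14 classes and Lars2 the adjusted p of the exact permutation tests was at least 0.857, and 3 against 3 libraries cannot go below an unadjusted p of 0.1. The share of C/D box snoRNAs averaged 10.5 ± 5.62% with palmitate and 7.96 ± 2.87% in mock (SD, n = 3 each), and 7.56% over the palmitate libraries other than replicate 1. Without palmitate replicate 3, 6 of these 15 shares did not overlap between groups, those of H/ACA box snoRNAs, other snoRNA features, snRNA, microRNA and transfer RNA features and Lars2, and without palmitate replicate 1 or 2 none did so.

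**Figure D3:**
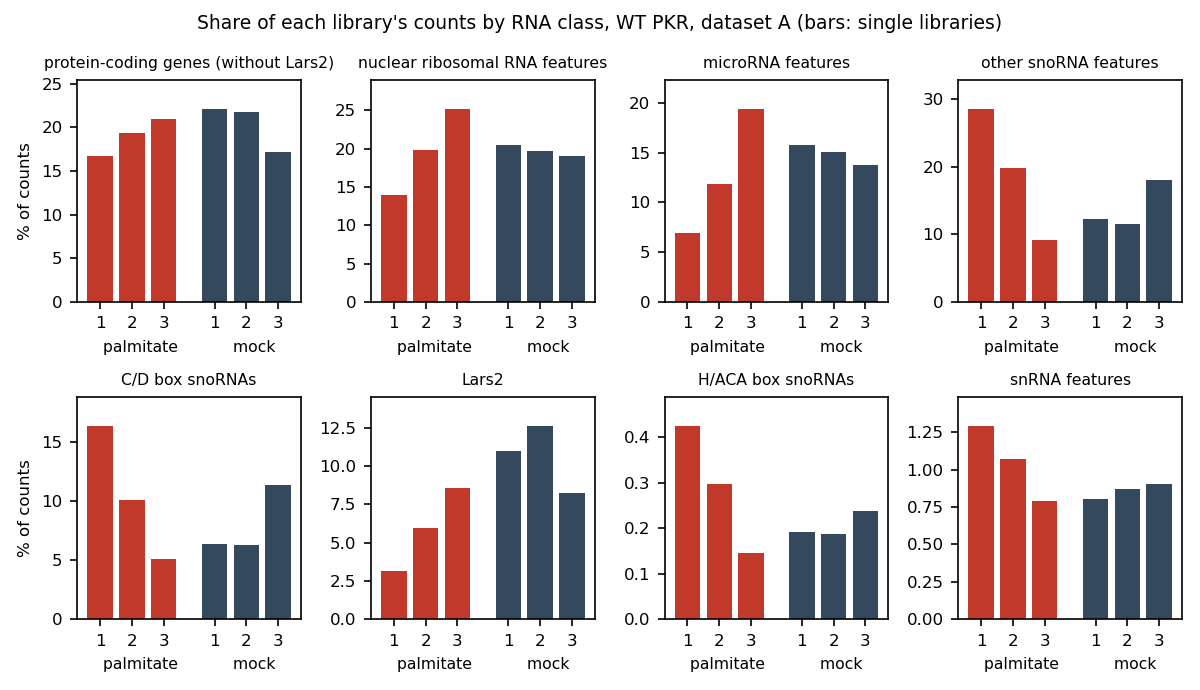
Share of each library's counts, in percent (vertical axes from 0), taken by 7 RNA classes and by Lars2 in the 3 palmitate libraries (red, left) and the 3 mock libraries (dark blue, right) of WT PKR, dataset A; each bar is 1 library. Palmitate replicate 1 is the highest bar and palmitate replicate 3 the lowest in the 3 snoRNA classes, and the groups overlap in every panel.

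The snoRNA families are told apart by short boxes, a box C near the 5′ end with a box D near the 3′ end for those that guide ribose methylation, and an ACA box near the 3′ end for those that guide pseudouridylation. Of the 71 C/D box snoRNAs tested, 45 held box C (TGATGA) in the first 20 bases and box D (CTGA) in the last 20 bases of the GENCODE M21 sequence, and 35 of 37 H/ACA box snoRNAs held ACA in the last 8 bases. Snord60, Snord37, Snora3 and Snora75, from the members with the smallest p or the highest counts, are shown in DNA letters with these boxes in capitals.
Snord60: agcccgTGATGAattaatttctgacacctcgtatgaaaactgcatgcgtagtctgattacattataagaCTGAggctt
Snord37: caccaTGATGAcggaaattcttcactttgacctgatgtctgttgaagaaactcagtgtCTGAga
Snora3: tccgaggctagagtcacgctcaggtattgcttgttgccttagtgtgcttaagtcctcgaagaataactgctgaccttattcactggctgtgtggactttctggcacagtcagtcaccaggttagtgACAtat
Snora75: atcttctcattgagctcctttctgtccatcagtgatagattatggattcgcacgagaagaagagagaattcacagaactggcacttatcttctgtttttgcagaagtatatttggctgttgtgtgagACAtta

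Of the C/D box snoRNAs, 0 of 71 passed in edgeR and in DESeq2, 3 were at an unadjusted edgeR p under 0.05, and 70 had a positive log2 fold change, with a median of 0.57. The median was 0.02 without palmitate replicate 1, with 36 positive, and 1.01 without palmitate replicate 3. Snord60 had 1030, 409 and 196 CPM with palmitate against 216, 196 and 401 CPM in mock, and Snord37 had 722, 382 and 205 CPM with palmitate against 137, 169 and 342 CPM in mock. Only palmitate replicate 1 and, more narrowly, replicate 2 lay above the mock range in both. Of the H/ACA box snoRNAs, 0 of 37 passed in edgeR and in DESeq2, 9 were at an unadjusted edgeR p under 0.05, and 37 were positive, with a median of 0.72, which was 0.25 without palmitate replicate 1 and 1.08 without palmitate replicate 3. Snora75 had 452, 336 and 191 CPM with palmitate against 131, 135 and 169 CPM in mock, a gap between the groups in all libraries (log2 1.17 ± 0.42; edgeR adjusted p = 0.261). Snora3 had 67.8, 33.1 and 25.7 CPM with palmitate against 13.0, 16.9 and 27.1 CPM in mock, and overlapped through its replicates 3 (log2 1.19 ± 0.41; edgeR adjusted p = 0.283). The median was 0.62 for 214 other snoRNA features, of which 33 were higher at an unadjusted p under 0.05, and 0.13 without palmitate replicate 1. It was 0.40 for 197 snRNA features and 0.44 for 9 small Cajal body RNAs, with 0.21 for snRNA features and 0.03 for small Cajal body RNAs without that library. In the authors' deposited table, 181 features were past the score that stands for a false discovery rate of 0.05. They were 148 higher and 33 lower, with 100 protein-coding genes, 45 other snoRNA features, 14 H/ACA box and 10 C/D box snoRNAs, and all of these snoRNA features were higher. Of the 38 transcripts called by edgeR, 37 were past that score in the authors' deposited table.

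The other noncoding classes gave no call with all libraries. Of 215 microRNA features, 0 passed in edgeR or DESeq2, 7 were higher and 2 lower at an unadjusted edgeR p under 0.05, and the median was 0.19, with 0.34 without palmitate replicate 1 and -0.02 without palmitate replicate 3. Of 221 nuclear transfer RNAs, 0 passed in either tool, 5 were higher and 2 lower at that p, and the median was 0.04, with 0.35 without palmitate replicate 1 and -0.21 without palmitate replicate 3. Of 36 mitochondrially encoded RNAs, 0 passed in either tool and 0 were at that p, with a median of 0.08 that was 0.40 without palmitate replicate 1 and -0.25 without palmitate replicate 3. Of 98 nuclear ribosomal RNA features, 0 passed in either tool and 1 was at that p, with a median of 0.34. Some of these features nearly matched each other in their counts, so the 98 are not separate measurements.

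Cholesterol synthesis had the lowest median of the function lists, though no member passed. Of 22 tested genes, 0 passed in edgeR or DESeq2, 12 were lower and 0 higher at an unadjusted edgeR p under 0.05, and 20 were negative, with a median of -0.48 that was -0.47 without palmitate replicate 1. Lss, the lanosterol synthase, had 10.6, 10.9 and 14.1 CPM with palmitate and 20.7, 16.0 and 21.2 CPM in mock (log2 -0.72 ± 0.21; edgeR adjusted p = 0.162). The groups did not overlap in Lss, and the palmitate libraries were the lower ones. Replication-dependent histone messages had a median of -0.37 over 62 tested, with 0 called in either tool and 6 lower at an unadjusted p under 0.05, and the median was -0.11 without palmitate replicate 1.

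**Figure D4:**
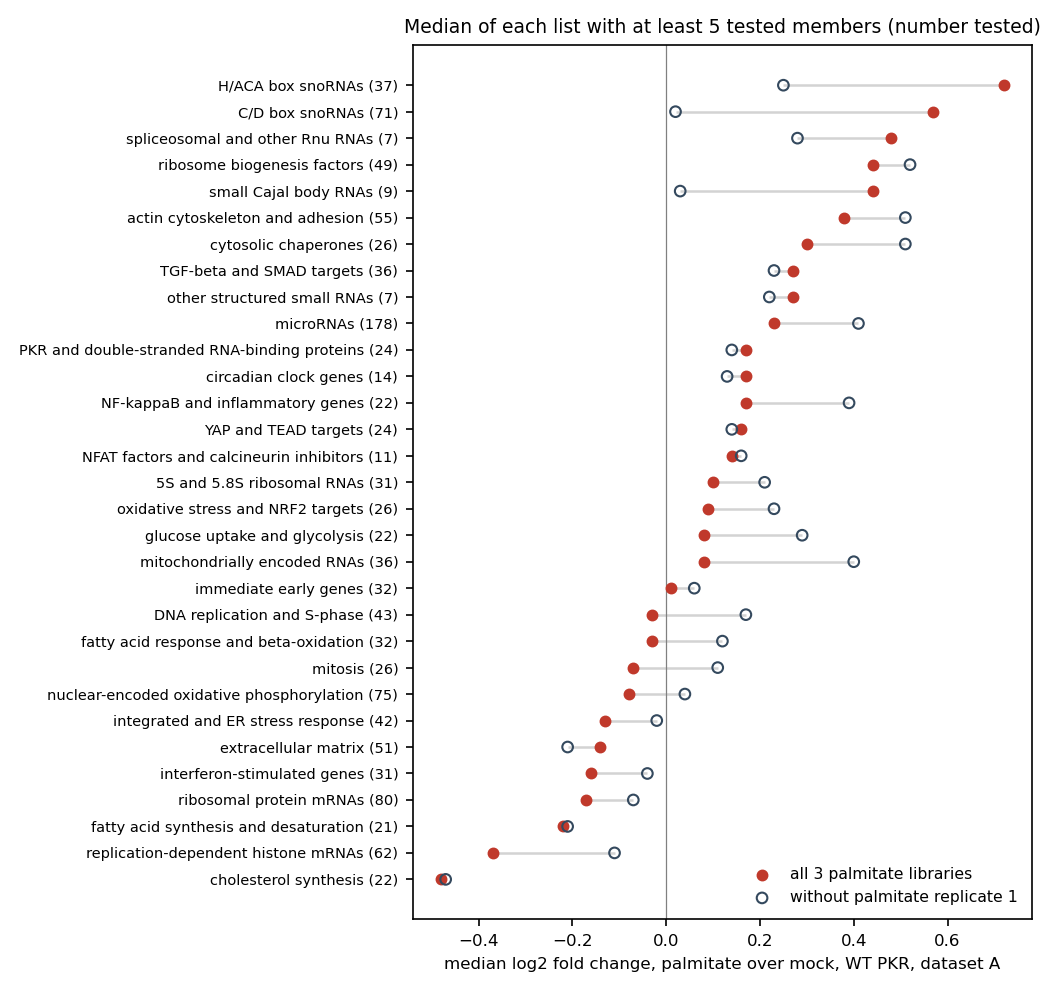
Median log2 fold change of palmitate over mock (horizontal axis) for each list with at least 5 tested members, with all 3 palmitate libraries (filled red) and without palmitate replicate 1 (open blue); the number tested is in brackets. C/D box snoRNAs lie at 0.57 and 0.02 and H/ACA box snoRNAs at 0.72 and 0.25, while ribosome biogenesis (0.44 and 0.52) and cholesterol synthesis (-0.48 and -0.47) hardly move.

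Stress and interferon programmes did not pass. Of 42 genes of the integrated and ER stress response, 0 passed in edgeR or DESeq2, 1 was higher and 6 lower at an unadjusted edgeR p under 0.05, and the median was -0.13. Ddit3, the stress transcription factor CHOP, had 0.819, 1.31 and 0.686 CPM with palmitate against 2.21, 2.78 and 3.73 CPM in mock (log2 -1.57 ± 0.49; edgeR adjusted p = 0.203). Of 31 interferon-stimulated genes, 0 passed in either tool and 4 were lower and 0 higher at that p, with a median of -0.16. Of 32 immediate early genes, 0 passed in either tool, 3 were higher and 2 lower at that p, and the median was 0.01. Of 22 NF-kappaB and inflammatory genes, 0 passed in either tool with all libraries, 6 were higher at that p and the median was 0.17. Of 26 cytosolic chaperones, 0 passed in either tool with all libraries and 4 were higher at that p, with a median of 0.30. Lists of ribosomal proteins, oxidative phosphorylation, DNA replication, mitosis, clock genes, oxidative stress and double-stranded RNA-binding proteins had 0 called in either tool. Their medians lay between -0.17 and 0.17, with 0 to 7 members at that p in a direction. Of the 14 clock genes tested, 4 were higher and 1 lower at that p, where 5.08% of all features were higher. Among the 4 was Per2 (log2 1.48 ± 0.37; edgeR adjusted p = 0.101).

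The same 38 transcripts were read in fibroblasts with the RNA-binding mutant of PKR, named RM, whose 6 libraries in dataset A were fitted together with these. All 38 had the same sign there, and 13 of them passed in the same direction. Of all features 0.477% passed there, 0.318% higher and 0.159% lower. Both contrasts use the same estimate of spread for each feature, so the calls with WT and RM PKR are not independent. Ccn2 rose there too (log2 2.54; edgeR adjusted p = 0.000328), as did Angptl4 (2.59; 1.71e-05) and Skil (1.41; 0.00225), and Osr2 fell (-1.47; 0.00225). The difference of the palmitate effect between WT and RM PKR passed for 0 of 11328 features in edgeR, with 469 at an unadjusted p under 0.05, 7 of them among the 38. The 38 were chosen by their WT effect, which is part of this difference, so the 7 are no test of it. Gnl3 had a log2 fold change of 0.41 with RM PKR (WT minus RM 1.09 ± 0.40, unadjusted edgeR p across all features = 0.0131), and Nfatc1 one of 0.58 (0.73 ± 0.28; 0.0170). One of the 3 RM palmitate libraries was the shallow one named above.

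Dataset B held 3 palmitate and 3 mock libraries of WT PKR that did not enter the calls of dataset A. The mark 2hr stands in its column names without an explanation, and it gave 1938 of 12466 features (15.5%), 1175 higher (9.43%) and 763 lower (6.12%). Of the 38 transcripts, 37 were tested in dataset B (Slc7a3 was not), 35 had the same sign and 28 passed in the same direction, 23 higher and 5 lower. None passed in the other direction. These 28 were 73.7% of the calls of dataset A and 1.44% of those of dataset B. On the log2 scale Angptl4 rose by 2.25 ± 0.26 in dataset A and by 2.24 ± 0.16 in dataset B, and Samd4 by 1.32 ± 0.21 in dataset A and by 1.39 ± 0.13 in dataset B. The higher transcripts that did not pass in dataset B were Uap1, Dis3, Il1rl1 and Bmp2k, with log2 fold changes of 0.20, 0.23, 0.09 and 0.04 there. The lower ones were Acacb (0.10), Emc10 (0.04), Srgap3 (-0.11), Fam84b (-0.51) and Gab3 (-0.59).

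**Figure D5:**
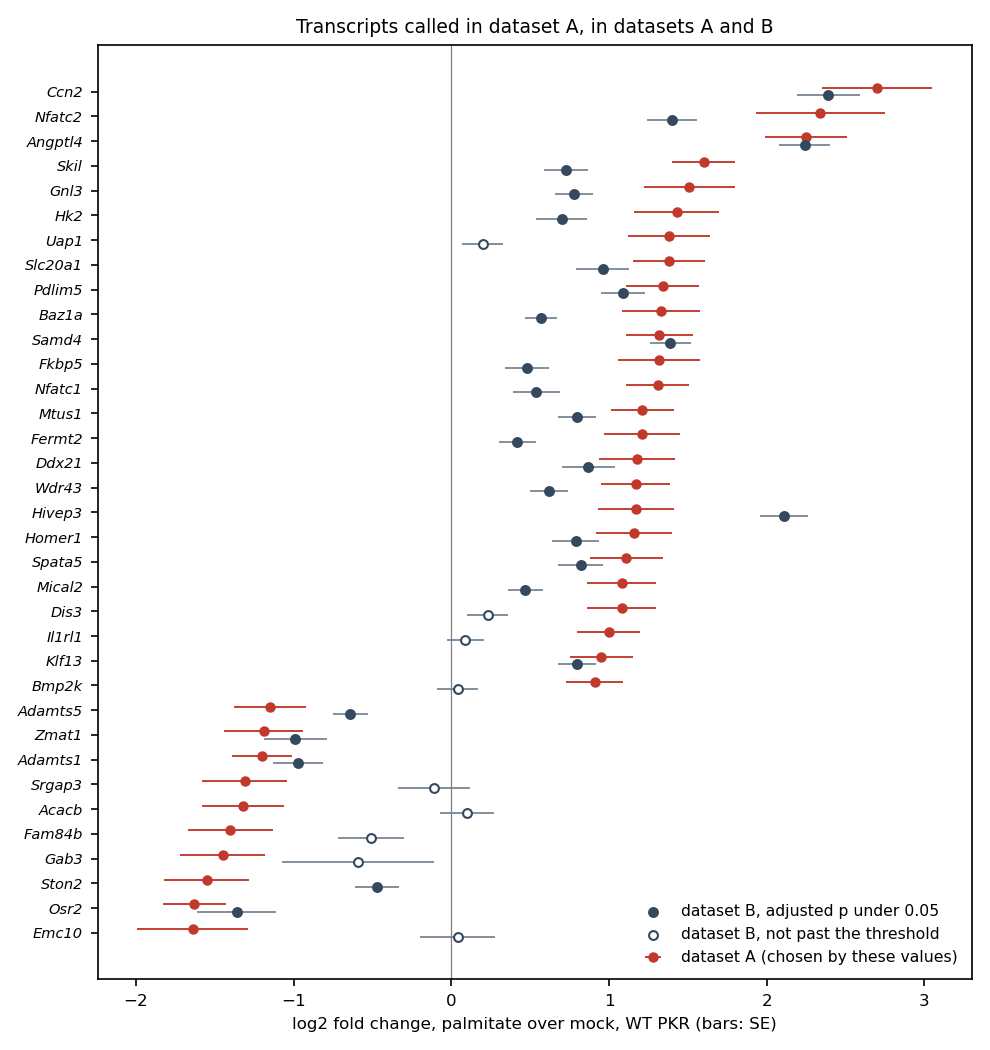
Log2 fold change of palmitate over mock with SE (horizontal axis) for 35 transcripts called in dataset A that were also tested in dataset B, ordered by their value in dataset A (red); dataset B is dark blue, filled where it passed and open where it did not. Of the 35, 33 lie on the same side of 0 in both datasets and 26 are filled.

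The difference between datasets was tested in 1 fit of 24 libraries. It passed for 24 of 12683 features (0.189%), 9 higher (0.071%) and 15 lower (0.118%) in dataset A. Of these, 2 were among the 38. The 38 were chosen by their effect in dataset A, which is part of this difference, so the 2 are no test of it. Uap1 was higher with palmitate in dataset A by 1.23 ± 0.27 more on the log2 scale than in dataset B (edgeR adjusted p = 0.0448). The other was Slc7a3, which had only 5, 3 and 6 counts with palmitate and 0, 0 and 2 counts in mock in dataset B, too few to enter the fit of that dataset. Of the 50 features called only without palmitate replicate 1, 18 passed in the same direction in dataset B and 1 in the other. That one was Nedd9, a focal adhesion scaffold, with 42.4, 53.8 and 69.6 CPM with palmitate and 27.6, 33.3 and 31.7 CPM in mock in dataset A, and a log2 fold change of -0.37 in dataset B (edgeR adjusted p = 0.0358). Of the snoRNA lists, which had no call in dataset A, 28 of 70 C/D box snoRNAs and 32 of 37 H/ACA box snoRNAs were higher there, with medians of 0.87 and 1.60. Ribosome biogenesis had 17 higher and 1 lower of 49 in dataset B, and cholesterol synthesis 15 lower of 22. Targets of YAP and TEAD had 13 higher and 1 lower of 24 there, and TGF-beta targets 14 higher and 2 lower of 36. The actin cytoskeleton and adhesion list had 18 higher and 0 lower of 55. Of all features in dataset B, 9.43% were higher and 6.12% lower.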

How the data were processed

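The deposited tables hold raw counts per annotated feature and library, made by the authors without normalization, as their whole numbers and unequal totals show. Per the submitters' processing notes, reads were called with CASAVA 1.7.0 and 1.8.2 and aligned with Novoalign to mm9. The notes name no counting tool and do not say whether strand was used. The authors' deposited table of dataset A also gives a log2 ratio and a false discovery rate score, which was read from its values as a negative log10 scaled so that 13.0 stands for 0.05. Each table has 30210 features; 25755 of 29777 Ensembl identifiers were matched to GENCODE M21 for RNA classes. Of the per-sample columns, 24 columns of counts were used and 60 others were not.

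The 12 libraries of dataset A were fitted in 1 model of 4 group means with edgeR 4.0.16 (quasi-likelihood test, TMM scaling, filterByExpr, Benjamini-Hochberg adjustment over all tested features, threshold 0.05), under R 4.3.3. The biological coefficient of variation was 0.22. CPM values use TMM library sizes, and errors of log2 fold changes are SE. Exact two-sided permutation tests compared the class shares (scipy 1.17.1). DESeq2 1.42.0, other scales and filters, a replicate block and leaving out each library were tried as alternatives. The scripts were tested on simulated data. Among the WT libraries of dataset A, no pair within a group agreed within counting noise, and other pairs were not checked. The p-values measure the spread between the libraries that the labels call biological replicates. Palmitate and mock libraries of 1 number did not deviate together (r = -0.16373, 0.04405 and -0.19699), so the numbers were not taken to pair the libraries.

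The comparison, gene lists and rules were chosen with earlier results of these data known. Named were called features whose libraries do not overlap (up to 20 higher and 12 lower), the 8 higher and 8 lower with the smallest p among those called only without palmitate replicate 1, up to 4 members of each list by p, the 2 most counted members of each RNA class, Eif2ak2 and Lars2. The other called genes and Nedd9 were named after their values were seen. Some genes that met these rules are counted but not reported here by name.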

Additional observations from a re-analysis of the deposited data

Results flagged for a closer look

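For 4 of the named transcripts the palmitate effect with WT PKR differed between datasets A and B in a test of the difference itself (edgeR, 24 libraries, adjusted over all features tested). The 4 had been called in dataset A, Nedd9 and Dcaf13 only without palmitate replicate 1. They were thus chosen by an effect that is part of this difference, which can enlarge it. Uap1 averaged 12.7 ± 0.391 CPM with palmitate and 4.88 ± 0.453 CPM in mock in dataset A, and 26.9 ± 2.3 CPM with palmitate and 23.5 ± 0.686 CPM in mock in dataset B (SD, n = 3 each). Its log2 difference, A minus B, was 1.23 ± 0.27 (SE; edgeR adjusted p = 0.0448). Nedd9 differed by 1.23 ± 0.22 (edgeR adjusted p = 0.0227), with 55.3 ± 13.7 CPM with palmitate and 30.9 ± 2.94 CPM in mock in dataset A, and 59.8 ± 5.59 CPM with palmitate and 77.1 ± 7.16 CPM in mock in dataset B. Dcaf13, which overlaps a 5S RNA feature, differed by 1.49 ± 0.32 (edgeR adjusted p = 0.0422). Slc7a3 differed by -4.56 ± 0.80 (edgeR adjusted p = 0.0227), at 1.03 ± 0.316 CPM with palmitate and 3.99 ± 1.09 CPM in mock in dataset A, where its own log2 fold change was -1.85. In dataset B it had 5, 3 and 6 counts with palmitate and 0, 0 and 2 counts in mock and was not tested, so the size of this difference rests on counts near 0 and is no measure of the gap. The datasets differ in more than the mark 2hr, and which difference goes with these values was not tested.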

How the results depend on the processing

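The 38 calls kept their sign in every setting where they could be fitted, but their number moved. Leaving out 1 of the 6 libraries gave 6 to 81 calls. It was 12 with the 6 WT libraries alone, 137 without RM palmitate replicate 2, 117 with protein-coding features alone, 6 on total counts and 197 with no filter on low counts. DESeq2 gave 35, and RLE size factors 42. Total counts shifted the median of all features by -0.14 on the log2 scale. Chosen after seeing the data, fits without palmitate replicate 1 gave 255 calls with the 5 other WT libraries alone, 359 also without RM palmitate replicate 2 and 251 with protein-coding features alone. The replicate block gave 31 calls with 12 libraries, 29 of them among the 38, and 0 with the 6 WT libraries alone (edgeR; 1010 at an unadjusted p under 0.05; DESeq2 was not run with the block). Replicate numbers are shared only as numbers, and palmitate replicate 1 correlated best with mock replicate 3. Of 15 shares, 0 to 6 did not overlap when a library was left out, 6 without palmitate replicate 3 and 3 without mock replicate 3. Dataset B gave 1084 calls on total counts. The A minus B difference gave 49 on total counts, 1 higher and 48 lower against 9 and 15, and 245 without palmitate replicate 1. Eif2ak2, not called, had a log2 fold change of -0.10 without palmitate replicate 3 and 0.47 without replicate 1, the range over libraries left out. The cause of these shifts was not tested. Depth of 3249858 to 7555175 counts leaves transcripts near 1 CPM, such as Slc7a3, at a few counts a library.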
